A study of Mus musculus with 4 samples.

Results

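A set of 10 genes of Toll-like receptor (TLR) signalling were followed in kidneys of pristane-injected mice, out of 54532 genes counted. The 10 genes encode the nucleic acid receptors Tlr3, Tlr7, Tlr8, Tlr9 and Tlr13, the surface receptors Tlr2 and Tlr4, the transport protein Unc93b1, the adaptor Myd88 and the transcription factor Irf5. They were chosen by name together with an earlier reading of these counts, in which Tlr7 was higher in kidneys of Zbp1-deficient mice, so the genotype difference of these genes is given as a description, and the fit across all genes is no independent test of it. Each genotype contributed 2 kidney libraries. Wild-type (WT) mice were compared with mice in which Zbp1 had been deleted from exon 2 to exon 8 by CRISPR-Cas9 (Zbp1-KO), both on the C57BL/6J background. Every animal, WT or Zbp1-KO, had been given 500 µL of pristane intraperitoneally when 8 weeks old, a hydrocarbon oil that induces lupus-like disease, and the kidneys were collected 8 months afterwards. The study describes the injected mice as female. Mice without pristane were not analysed here. The labels number the kidneys 1 and 2 in each genotype without saying that each came from a separate animal, so spread between libraries may be partly technical.

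TLRs are membrane receptors that bind microbial products or nucleic acids and signal through a shared intracellular domain. The nucleic acid receptors work inside endosomes, where TLR7, TLR8 and TLR13 bind single-stranded RNA or its fragments, TLR9 binds DNA rich in unmethylated CpG and TLR3 binds double-stranded RNA. Unc93b1 carries these receptors from the endoplasmic reticulum to endosomes, Myd88 relays the signal of every TLR in this set other than TLR3, and Irf5 is switched on downstream of Myd88. Excess TLR7 activity drives lupus-like disease in mice, and the study describes pristane-induced disease as driven predominantly by TLR7. It examined proteins downstream of TLR7 when it asked how loss of Zbp1 alters the kidney.

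The libraries held between 9878776 and 12921925 counts, of which 49.5% to 61.5% fell on mitochondrially encoded genes. Levels are given as CPM, the counts of a gene relative to the library total scaled by TMM factors, and a count of 0 allowed up to 0.221 to 0.323 CPM (3 counts). Zbp1, the deleted gene, had 94 and 125 counts in WT against 18 and 0 counts in Zbp1-KO, so it was lower in both libraries labelled Zbp1-KO. The edgeR quasi-likelihood test gave Zbp1 an adjusted p of 0.999 at a log2 fold change of -3.64 ± 0.89 (SE), and the edgeR exact test an adjusted p of 0.011. All 12 marker genes of kidney epithelium were detected, with summed levels of 9700 to 13000 CPM per library. Across all genes, the edgeR quasi-likelihood test (adjusted p under 0.05) called 2 of 14908 genes, or 0.0134%. In whole kidney, more cells of a type and more RNA per cell cannot be told apart.

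Of the 10 genes, 8 passed the low-count filter and all 8 passed it in both genotypes. None of the 8 was called by the edgeR quasi-likelihood test, where 0.0134% of all genes were called, none was called by the edgeR exact test, and 1, Tlr7, was higher at an unadjusted p under 0.05, a threshold that 1.91% of all genes passed in that direction. Both Zbp1-KO libraries lay above both WT libraries for 3 of the 8 (Tlr3, Tlr4 and Tlr7), where 16.0% of all tested genes did so. None lay below, where 16.3% of all tested genes did. The median log2 fold change (Zbp1-KO over WT) of the 8 was 0.30, against -0.0061 over all tested genes, and nothing is read from these counts because the genes were selected on this contrast.

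**Figure D1:**
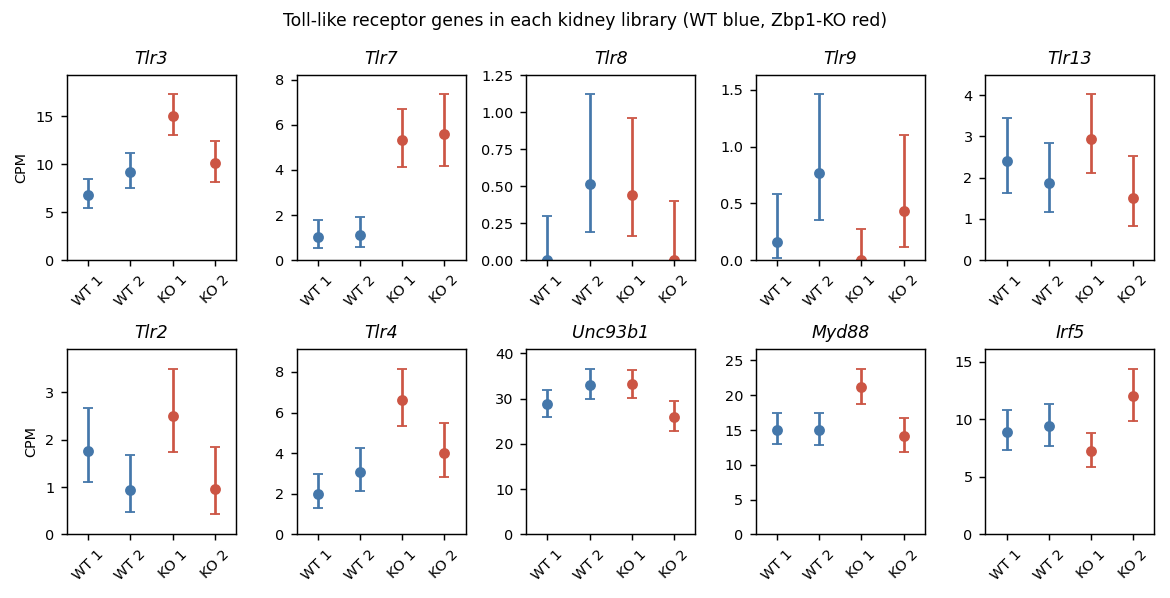
CPM of the 10 genes in each of the 4 libraries, each panel on its own linear axis from 0; points are library values and bars are exact 95% Poisson intervals, which cover counting error only. For Tlr7 both Zbp1-KO points (5.31 and 5.60 CPM) lie above both WT points (1.05 and 1.11 CPM), whereas Tlr8 and Tlr9 stay below 1 CPM in every library.

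Tlr7, the endosomal receptor for single-stranded RNA, was covered by 13 read pairs in each WT library and by 72 and 52 read pairs in Zbp1-KO. This gave 1.05 and 1.11 CPM in WT against 5.31 and 5.60 CPM in Zbp1-KO. The exact 95% Poisson intervals of the WT libraries reached at most 1.90 CPM and those of the Zbp1-KO libraries began at 4.15 CPM, which covers counting error and not the spread between kidneys. The Zbp1-KO mean of 5.46 ± 0.207 CPM was 5.06 times the WT mean of 1.08 ± 0.0469 CPM (SD, n = 2 each), and the fitted log2 fold change was 2.33 ± 0.68 (SE). Within a genotype the libraries were close, with Zbp1-KO 2 at 1.06 times Zbp1-KO 1 and WT 2 at 1.06 times WT 1. The fit draws the spread of a gene largely from genes of similar level, which makes its SE wider than these pairs alone would, and Tlr7 rests on 150 counts in all.

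Tlr7 lies on chromosome X (ENSMUSG00000044583, 167304929 to 167330558, minus strand, GRCm38), next to Tlr8 (ENSMUSG00000040522, 167242696 to 167264329, minus strand). Tlr8, another receptor for single-stranded RNA, had 0 and 6 counts in WT against 6 and 0 counts in Zbp1-KO. Each genotype thus held 1 library with and 1 library without Tlr8 reads, and no direction could be given at this depth. Of the other protein-coding genes within 500 kb of Tlr7, Tmsb4x, which encodes thymosin beta 4, measured 606 and 652 CPM in WT against 620 and 647 CPM in Zbp1-KO, a log2 fold change of 0.01. Prps2, an enzyme of nucleotide synthesis, measured 29.1 and 43.0 CPM in WT against 62.7 and 33.2 CPM in Zbp1-KO, and its groups overlapped. Frmpd4 was lower in Zbp1-KO, with 1.40 and 0.862 CPM against 1.93 and 3.51 CPM in WT, so the genes around Tlr7 lay on both sides of 0. These neighbours were looked at after the values of Tlr7 were known.

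Tlr3 (ENSMUSG00000031639, chromosome 8, 45395665 to 45411080, minus strand), the endosomal receptor for double-stranded RNA, had 85 and 108 counts in WT against 205 and 94 counts in Zbp1-KO. Its levels were 6.84 and 9.24 CPM in WT against 15.1 and 10.1 CPM in Zbp1-KO, a log2 fold change of 0.66 ± 0.36 (SE). The groups did not overlap, but the gap between WT 2 and Zbp1-KO 2 was within their Poisson intervals, which ran from 7.58 to 11.2 CPM and from 8.18 to 12.4 CPM. Exons of Tlr3 overlap those of the antisense gene Gm45542 over 381 bases, and Gm45542 had 0 counts in all 4 libraries.

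Tlr9 (ENSMUSG00000045322, chromosome 9, 106222598 to 106226883, plus strand), the receptor for CpG DNA, had 2 and 9 counts in WT against 0 and 4 counts in Zbp1-KO, at most 0.770 CPM in a library. Like Tlr8 it did not pass the filter, and its groups overlapped. Tlr13 (ENSMUSG00000033777, chromosome X, 106143204 to 106160493, plus strand), which binds a sequence of bacterial ribosomal RNA, had 30 and 22 counts in WT against 40 and 14 counts in Zbp1-KO. Its levels of 2.41 and 1.88 CPM in WT lay between those of Zbp1-KO 1 (2.95 CPM) and Zbp1-KO 2 (1.51 CPM), with a log2 fold change of 0.06 ± 0.84 (SE). None of the other endosomal receptors thus had a difference of the size of that of Tlr7, and of these only Tlr3 had an SE under 0.5.

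Tlr4 (ENSMUSG00000039005, chromosome 4, 66827584 to 66930284, plus strand), the surface receptor for bacterial lipopolysaccharide, had 25 and 36 counts in WT against 90 and 37 counts in Zbp1-KO. Its levels were 2.01 and 3.08 CPM in WT against 6.64 and 3.99 CPM in Zbp1-KO, a log2 fold change of 1.07 ± 0.61 (SE). The groups did not overlap, and Zbp1-KO 1 was 1.67 times Zbp1-KO 2, and WT 2 and Zbp1-KO 2 lay nearer to each other than the Zbp1-KO libraries did. Tlr2 (ENSMUSG00000027995, chromosome 3, 83836272 to 83841767, minus strand), the surface receptor for bacterial lipoproteins, had 22 and 11 counts in WT against 34 and 9 counts in Zbp1-KO. Its levels of 1.77 and 0.941 CPM in WT against 2.51 and 0.969 CPM in Zbp1-KO overlapped, with a log2 fold change of 0.37 ± 1.04 (SE).

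Unc93b1 (ENSMUSG00000036908, chromosome 19, 3935186 to 3949340, plus strand), on which the endosomal receptors depend for transport, had 358 and 387 counts in WT against 450 and 241 counts in Zbp1-KO. Its levels were 28.8 and 33.1 CPM in WT against 33.2 and 26.0 CPM in Zbp1-KO, with the WT libraries between the Zbp1-KO libraries and a log2 fold change of -0.06 ± 0.23 (SE). Myd88 (ENSMUSG00000032508, chromosome 9, 119335934 to 119341411, minus strand) had 187 and 175 counts in WT against 287 and 131 counts in Zbp1-KO. Both WT libraries stood at 15 CPM, between Zbp1-KO 1 at 21.2 CPM and Zbp1-KO 2 at 14.1 CPM, and the log2 fold change was 0.24 ± 0.29 (SE). Irf5 (ENSMUSG00000029771, chromosome 6, 29526625 to 29541871, plus strand) had 111 and 110 counts in WT against 98 and 111 counts in Zbp1-KO. Its levels were 8.93 and 9.41 CPM in WT against 7.23 and 12.0 CPM in Zbp1-KO, a log2 fold change of 0.06 ± 0.38 (SE). For the carrier, the adaptor and the transcription factor the Zbp1-KO libraries thus bracketed the WT libraries, and Irf5 was the only one of them that was higher in Zbp1-KO 2 than in Zbp1-KO 1. Exons of Myd88 overlap those of Acaa1a on the opposite strand over 290 bases (11.3% of its exon length), and those of Irf5 overlap Tnpo3 over 411 bases (14.1%), so part of their reads may belong to these neighbours if counting did not use the strand.

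The library Zbp1-KO 1 was the highest of the 4 for 6 of the 8 filtered genes, the exceptions being Tlr7 and Irf5, which were highest in Zbp1-KO 2. Zbp1-KO 1 also had the lowest mitochondrial share (49.5%, against 57.4% to 61.5% in the others), and the part of this in the levels was not tested beyond the fit without mitochondrially encoded genes, in which Tlr7 had a log2 fold change of 2.32. When libraries were left out 1 at a time, the log2 fold change of Tlr7 ran from 2.28 to 2.36, that of Tlr4 from 0.64 to 1.39 and that of Tlr3 from 0.33 to 0.90. The other 5 genes took both signs when 1 library was left out. Without Zbp1-KO 1, the values were -0.51 for Tlr13, -0.49 for Tlr2 and -0.09 for Myd88, and without Zbp1-KO 2 the value was -0.35 for Irf5.

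**Figure D2:**
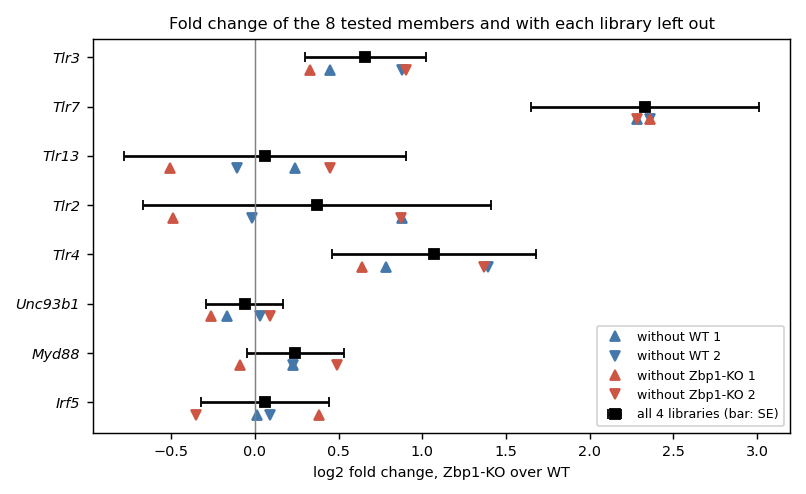
Log2 fold change (Zbp1-KO over WT) of the 8 genes that passed the filter; squares with bars are the fit on all 4 libraries with its SE, and triangles are fits with 1 library left out. The triangles of Tlr7 lie between 2.28 and 2.36, and those of Tlr13, Tlr2, Unc93b1, Myd88 and Irf5 fall on both sides of 0.

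Levels of different genes were compared as CPM per kilobase of annotated exon. Over the 4 libraries, Unc93b1 was highest (mean 9.98, range 8.57 to 10.9 CPM per kilobase), followed by Myd88 (mean 6.34, range 5.48 to 8.22) and Irf5 (mean 3.23, range 2.49 to 4.12), and the ranges of these neighbours did not overlap. Tlr3 came next (mean 1.98, range 1.31 to 2.90) and overlapped Irf5. Tlr7 (mean 0.800), Tlr4 (0.707), Tlr2 (0.513) and Tlr13 (0.508) followed with overlapping ranges, and Tlr9 (0.0979) and Tlr8 (0.0666) were lowest. Among the 7 receptors Tlr3 had the highest level per kilobase in each of the 4 libraries. Tlr7 was 5th of the 7 in both WT libraries, at 0.256 and 0.272 CPM per kilobase, and 2nd in both Zbp1-KO libraries, at 1.30 and 1.37 CPM per kilobase. As a share of the summed levels per kilobase of the 7 receptors, Tlr7 made up 8.20% and 7.33% in WT and 18.5% and 28.4% in Zbp1-KO, whereas Tlr3 made up 42.0% and 47.8% in WT and 41.2% and 40.3% in Zbp1-KO.

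Promoter windows of 300 bases (250 before and 50 after the start site, RefSeq, GRCm38.p6) were matched for 7 of the 10 genes, and not for Tlr4, Tlr7 and Unc93b1. They were searched on both strands for GAGGAA, the core bound by the myeloid factor PU.1 and by other ETS factors, and for GAAANNGAA, a pair of half-sites of the kind bound by interferon regulatory factors. GAGGAA was present in 3 of the 7 windows and in 28.3% of 32851 promoter windows of the same length, and GAAANNGAA in 2 of the 7 and in 8.6% of all. Tlr8 is shown because its window held both motifs while its transcripts were at 0 to 6 counts, Myd88 because it is the shared adaptor and held the half-sites, and Tlr3 because it was the one among the 3 genes with separated groups that could be matched, and it held neither. Capitals mark the motif matches, and each window reads 5′ to 3′ on the strand of its gene. The windows lie at chrX:167264280-167264579 for Tlr8, chr9:119339969-119340268 for Myd88 and chr8:45410331-45410630 for Tlr3, all on the minus strand.
Tlr8: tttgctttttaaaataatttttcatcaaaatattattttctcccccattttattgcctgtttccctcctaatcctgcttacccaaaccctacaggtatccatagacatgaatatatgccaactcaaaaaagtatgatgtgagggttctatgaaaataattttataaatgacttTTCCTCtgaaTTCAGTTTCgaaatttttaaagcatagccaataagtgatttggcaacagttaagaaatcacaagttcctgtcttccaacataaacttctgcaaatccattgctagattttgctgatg
Myd88: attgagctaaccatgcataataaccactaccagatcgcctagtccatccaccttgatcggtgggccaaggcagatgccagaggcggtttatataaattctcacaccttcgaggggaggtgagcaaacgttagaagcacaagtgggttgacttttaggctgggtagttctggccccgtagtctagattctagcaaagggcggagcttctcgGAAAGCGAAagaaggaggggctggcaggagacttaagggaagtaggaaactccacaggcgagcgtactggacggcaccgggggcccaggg
Tlr3: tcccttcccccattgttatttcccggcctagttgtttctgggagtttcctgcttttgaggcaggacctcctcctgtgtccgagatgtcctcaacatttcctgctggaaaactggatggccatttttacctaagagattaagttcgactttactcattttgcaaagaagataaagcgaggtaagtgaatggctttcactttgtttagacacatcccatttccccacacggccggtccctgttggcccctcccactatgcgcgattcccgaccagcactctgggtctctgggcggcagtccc
In Tlr8 the matches begin 77 bases (GAGGAA, in reverse complement) and 67 bases (GAAANNGAA, in reverse complement) upstream of the start site, and in Myd88 the match begins 40 bases upstream. A match is a stretch of letters and says nothing about binding in these kidneys.

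Tlr7 is expressed mainly by B cells, plasmacytoid dendritic cells, monocytes and macrophages, and the markers of these cells were read beside it. The 15 macrophage and monocyte markers, all detected, summed to 439 and 300 CPM in WT against 425 and 433 CPM in Zbp1-KO, a ratio of 1.16. None of the 15 was lower in Zbp1-KO without overlap, where 16.3% of all tested genes were, and 7 were higher without overlap, where 16.0% were. Among these, the fractalkine receptor gene Cx3cr1 measured 7 and 7.10 CPM in WT against 12.2 and 17.0 CPM in Zbp1-KO, and Ccr2, which marks monocytes entering from blood, measured 2.73 and 1.71 CPM in WT against 4.94 and 3.66 CPM in Zbp1-KO. Csf1r, a defining receptor gene of the macrophage lineage, measured 148 and 102 CPM in WT against 128 and 131 CPM in Zbp1-KO. For each 100 CPM of the summed macrophage markers there were 0.238 and 0.371 CPM of Tlr7 in WT against 1.25 and 1.29 CPM in Zbp1-KO. Tlr7, which was chosen with its difference known, differed by more than this sum. The most abundant markers in the sum were Csf1r and Lyz2, and Lyz2 measured 109 and 64.1 CPM in WT against 97.9 and 103 CPM in Zbp1-KO. The part of these cells in the level of Tlr7 was not tested.

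The 9 B cell markers summed to 5.95 and 8.38 CPM in WT against 2.65 and 7.54 CPM in Zbp1-KO, and Cd79a, which encodes part of the B cell receptor, had 0 counts in both Zbp1-KO libraries. The 4 plasmacytoid dendritic cell markers summed to 2.41 and 3.08 CPM in WT against 0.590 and 3.99 CPM in Zbp1-KO, and Siglech, the defining one, measured 1.45 and 1.63 CPM in WT against 0.590 and 2.48 CPM in Zbp1-KO. Cox6a2, a marker that muscle also expresses, had 12 counts in each WT library and 0 in each Zbp1-KO library, and Ccr9 and Pacsin1 had at most 10 counts in a library. Neither sum lay above both WT libraries in both Zbp1-KO libraries. Only 4 of the 9 B cell markers and 2 of the 4 plasmacytoid dendritic cell markers passed the filter. At so few reads no direction could be given for either cell type. The 8 conventional dendritic cell markers summed to 15.8 and 26.3 CPM in WT against 23.7 and 23.9 CPM in Zbp1-KO. The 10 T cell markers, of which 7 passed the filter, did move with Tlr7, from 13.8 and 8.30 CPM in WT to 27.6 and 19.5 CPM in Zbp1-KO. Of the 10, 4 were higher without overlap and 0 lower, where 16.0% and 16.3% of all tested genes were.

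Fat markers also moved with Tlr7. The 8 fat markers summed to 86.2 and 124 CPM in WT against 271 and 246 CPM in Zbp1-KO, a ratio of 2.46. Of the 8, 7 were higher without overlap and 0 lower, where 16.0% and 16.3% of all tested genes were. Lep, the leptin gene, had 0 counts throughout. The 5 genes whose log2 CPM profile over the 4 libraries was nearest to that of Tlr7, out of 14208 ranked by Euclidean distance, were Tspan2 (0.322), Cfd (0.331), Cidec (0.390), 1700001L19Rik (0.473) and Gm42814 (0.481). Cfd, which encodes complement factor D, and Cidec, a lipid droplet protein gene, are members of the fat list. With 4 libraries such closeness describes these libraries and no more. For each 100 CPM of summed fat markers there were 1.21 and 0.897 CPM of Tlr7 in WT against 1.96 and 2.28 CPM in Zbp1-KO. Most of the fat sum in WT was Fabp4, with 62.8 and 80.5 CPM against 115 and 88.8 CPM in Zbp1-KO, a log2 fold change of 0.51. The median log2 fold change of the 7 fat markers that passed the filter was 2.2, near the 2.33 of Tlr7. The part of fat, T cells and macrophages in the level of Tlr7 was not tested.

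**Figure D3:**
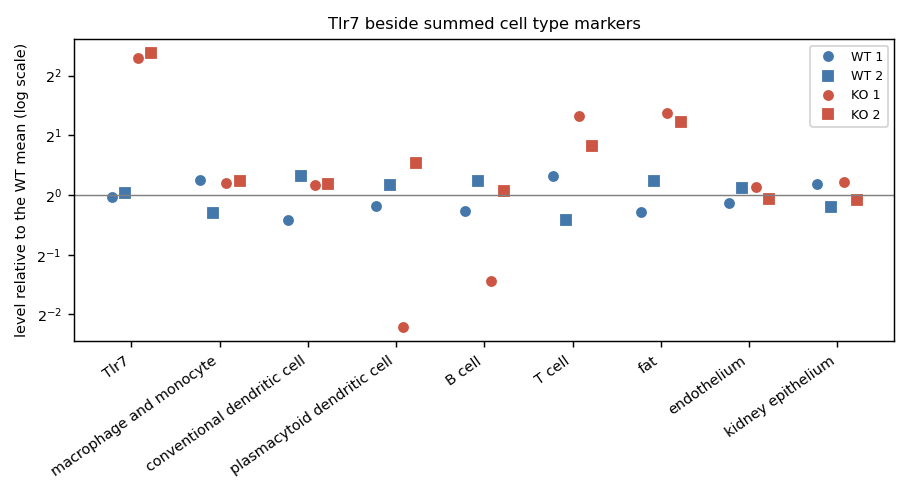
Tlr7 and the summed CPM of 8 cell type marker lists in each library, divided by the mean of the WT libraries, on a log axis; circles are replicate 1 and squares replicate 2. In Zbp1-KO, Tlr7 lies furthest above 1, the fat and T cell lists lie above both WT libraries, and the macrophage, endothelium and kidney epithelium lists lie near 1. The fat sum in WT is mostly Fabp4, so its points do not stand for each fat marker.

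Other genes of the pathway were then counted from lists of 119 genes that carry TLR ligand binding, transport, signalling and output, of which 106 passed the filter. None was called by the edgeR quasi-likelihood test (adjusted p = 0.999 for each of the 106) or by the edgeR exact test. At an unadjusted p under 0.05, 7 of the 106 were higher (6.6%, against 1.91% of all genes) and 4 lower (3.77%, against 1.97%). Both Zbp1-KO libraries lay above both WT libraries (separated upwards) for 19 of the 106 (17.9%, against 16.0% of all tested genes) and below (separated downwards) for 16 (15.1%, against 16.3%). The median log2 fold change was 0.04, and 59 of the 106 were above 0. The single lists are short, so their counts below are given as a description only.

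**Figure D4:**
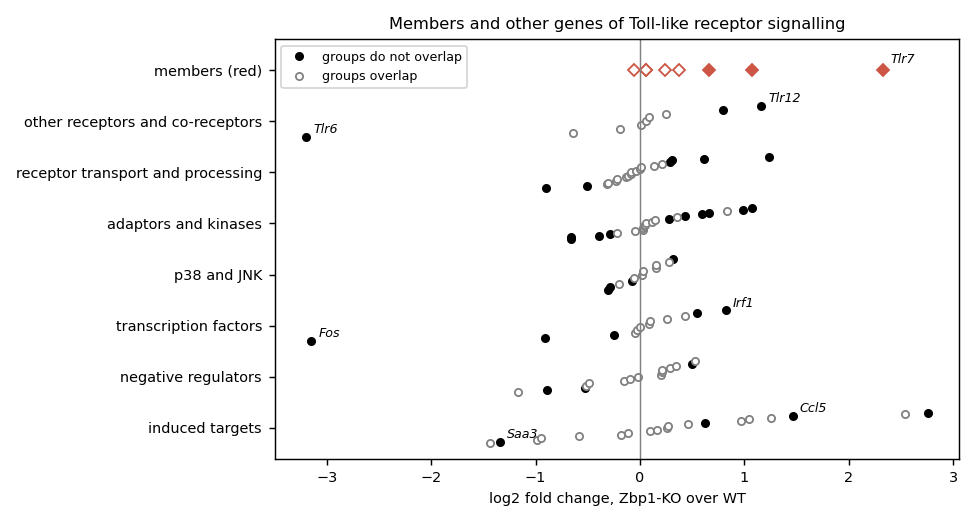
Log2 fold change (Zbp1-KO over WT) of the 8 filtered members (red diamonds) and of 106 other pathway genes (circles) by role; filled symbols mark genes whose Zbp1-KO libraries both lie on the same side of both WT libraries. Tlr7 at 2.33 lies to the right of the other members, and the 7 lists of pathway genes are centred between -0.09 and 0.26.

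Among the other receptors and co-receptors, 2 of 9 tested genes were separated upwards (22.2%, against 16.0% of all tested genes) and 1 downwards (11.1%, against 16.3%). Tlr1, which pairs with TLR2, measured 2.25 and 2.57 CPM in WT against 3.91 and 4.42 CPM in Zbp1-KO, a log2 fold change of 0.79 ± 0.65 (SE). Tlr12, a receptor for a protein of protozoan parasites, measured 2.25 and 1.28 CPM in WT against 4.57 and 3.34 CPM in Zbp1-KO (1.16 ± 0.72). Tlr6, the alternative partner of TLR2, went the other way, with 15 and 14 counts in WT against 3 and 0 counts in Zbp1-KO, and it was named after its values were seen. None of these differences was called. Tlr5 and Tlr11 did not pass the filter, with at most 19 counts in a library.

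Of 19 tested genes for receptor transport and processing, 4 were separated upwards (21.1%, against 16.0% of all tested genes) and 2 downwards (10.5%, against 16.3%), with a median of -0.09. Ap3b1, a subunit of the adaptor complex that sorts endosomal TLRs, measured 21.2 and 18.1 CPM in WT against 34.2 and 25.9 CPM in Zbp1-KO, a log2 fold change of 0.61 ± 0.25 (SE). The gene 5430427O19Rik measured 0.241 and 1.28 CPM in WT against 1.55 and 2.05 CPM in Zbp1-KO (1.23 ± 1.21). Cnpy4, a chaperone of surface TLRs, measured 10.5 and 10.4 CPM in WT against 4.28 and 7 CPM in Zbp1-KO (-0.90 ± 0.41). Rnaset2a, an RNase of lysosomes, measured 2.73 and 2.57 CPM in WT against 1.99 and 1.72 CPM in Zbp1-KO (-0.51 ± 0.81).

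Of 21 tested adaptor and kinase genes, 6 were separated upwards (28.6%, against 16.0% of all tested genes) and 4 downwards (19%, against 16.3%), with a median of 0.06. Ikbke, which encodes the kinase IKK epsilon, measured 5.95 and 8.72 CPM in WT against 11.2 and 18.1 CPM in Zbp1-KO, a log2 fold change of 0.99 ± 0.37 (SE). Tab3, a partner of the kinase TAK1, measured 5.23 and 4.36 CPM in WT against 13.9 and 6.14 CPM in Zbp1-KO (1.07 ± 0.47). Tirap, the adaptor that brings Myd88 to TLR2 and TLR4, measured 5.23 and 7.27 CPM in WT against 2.88 and 5.06 CPM in Zbp1-KO (-0.66 ± 0.53). Btk, a kinase of B cells and myeloid cells, measured 2.25 and 2.14 CPM in WT against 0.959 and 1.83 CPM in Zbp1-KO (-0.66 ± 0.96). Tbk1, whose phosphorylated protein the study examined, overlapped between genotypes, with 15.3 and 12.6 CPM in WT against 17.5 and 11 CPM in Zbp1-KO.

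The p38 and JNK genes were of interest because the study examined their phosphorylated proteins as readouts of TLR7 signalling. None of their transcripts was called. Mapk14, which encodes p38 alpha, measured 52.6 and 33.6 CPM in WT against 38.4 and 36.4 CPM in Zbp1-KO, a log2 fold change of -0.20 ± 0.24 (SE). Mapk8, which encodes JNK1, measured 11.8 and 9.24 CPM in WT against 13.0 and 10.3 CPM in Zbp1-KO (0.15 ± 0.33). The groups of Mapk14 and Mapk8 overlapped. Of the 11 genes in this list, 1 was separated upwards (9.09%, against 16.0% of all tested genes) and 3 downwards (27.3%, against 16.3%). The gene separated upwards was Mapk11 (0.32 ± 0.35). Those separated downwards included Map2k3 (-0.31 ± 0.20) and Mapkapk2 (-0.29 ± 0.19), which lie upstream and downstream of p38. Transcript levels carry no information on phosphorylation.

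Among 12 transcription factor genes, 2 were separated upwards (16.7%, against 16.0% of all tested genes) and 3 downwards (25%, against 16.3%). Irf1 measured 19.7 and 30.0 CPM in WT against 51.9 and 35.7 CPM in Zbp1-KO, a log2 fold change of 0.82 ± 0.27 (SE). Nfkb1, a subunit of NF-kappa B, measured 25.4 and 31.9 CPM in WT against 39.9 and 44.1 CPM in Zbp1-KO (0.55 ± 0.22). Both AP-1 genes Jun and Fos were separated downwards. Fos measured 42.9 and 11.5 CPM in WT against 0.664 and 5.82 CPM in Zbp1-KO (-3.15 ± 0.75), with a spread within WT nearly as large as its mean, and Jun measured 40.5 and 21.6 CPM in WT against 17.9 and 15.1 CPM in Zbp1-KO (-0.91 ± 0.30). Irf7, a partner of Myd88 in the interferon response to TLR7, measured 66.7 and 69.1 CPM in WT against 69.0 and 62.4 CPM in Zbp1-KO.

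Of 15 tested negative regulators, 1 was separated upwards (6.67%, against 16.0% of all tested genes) and 2 downwards (13.3%, against 16.3%). Irak3, which restrains the kinases below Myd88, measured 2.90 and 1.80 CPM in WT against 3.39 and 3.23 CPM in Zbp1-KO, a log2 fold change of 0.50 ± 0.71 (SE). Atf3 measured 11.6 and 8.72 CPM in WT against 8.33 and 2.48 CPM in Zbp1-KO (-0.89 ± 0.52), and Nfkbib, an inhibitor of NF-kappa B, measured 14.6 and 15.7 CPM in WT against 12.2 and 8.62 CPM in Zbp1-KO (-0.53 ± 0.31).

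Of 26 genes induced by TLR signalling, 19 passed the filter, with a median of 0.26. Of the 19, 3 were separated upwards (15.8%, against 16.0% of all tested genes) and 1 downwards (5.26%, against 16.3%). Ccl5, a chemokine for T cells, measured 0.885 and 6.76 CPM in WT against 11.4 and 9.59 CPM in Zbp1-KO, a log2 fold change of 1.46 ± 0.67 (SE). Cd86, a costimulatory gene of antigen-presenting cells, measured 3.54 and 1.88 CPM in WT against 3.83 and 4.52 CPM in Zbp1-KO (0.62 ± 0.65). Saa3, an acute-phase protein gene, was lower, with 164 and 77.1 CPM in WT against 23.7 and 72.4 CPM in Zbp1-KO (-1.34 ± 0.44). The third gene separated upwards, Il10, which encodes an anti-inflammatory cytokine, had 3 and 0 counts in WT against 11 and 9 counts in Zbp1-KO and was named after its values were seen. Tnf, the gene of tumour necrosis factor, had 14 and 0 counts in WT and 0 in each Zbp1-KO library. The neutrophil chemokine gene Cxcl2 had 15 and 5 counts in WT and 0 in each Zbp1-KO library. Neither passed the filter, and at so few reads no direction could be given for Tnf or Cxcl2. By qPCR, another measure, the study reported significantly higher Tnf in Zbp1-KO than in WT kidneys after pristane. The cytokine genes Il6, Il12a, Il12b and Ifnb1 had at most 3 counts in any library, which is too few reads to compare the genotypes.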

How the data were processed

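Per the labels and the study's methods, the authors prepared TruSeq libraries from polyadenylated kidney RNA, sequenced read pairs, trimmed with Trimmomatic, aligned with hisat2 and counted uniquely mapped pairs with featureCounts (mm10). The deposited values are raw counts per Ensembl gene. The annotation release, program versions and strand setting of the counting are not given in the sources used here. Molecular identifiers were not described, so intervals cover counting error only.

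Symbols, positions and exon lengths came from GENCODE M21 (GRCm38), which matched 54495 of 54532 IDs. All 4 libraries were fitted in edgeR 4.0.16 (R 4.3.3) after filterByExpr (minimum count 10, total 15) and TMM, with genotype as the only term. P-values were two-sided and adjusted by Benjamini-Hochberg over 14908 genes. Log2 fold changes used a prior count of 0.125, and each SE is the log2 fold change over the root of its F statistic. The fits were tested on simulated data.

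The 10 genes, the pathway and marker lists and the naming rule were chosen with earlier results of these data known. From each pathway list up to 2 separated genes per direction were named, those with the largest change at a mean of at least 1 CPM, plus Mapk14, Mapk8 and Tbk1, and the 5 genes nearest to Tlr7 on log2 CPM (prior count 2). Tlr6, Irf7, Il10, the neighbours of Tlr7, single markers and genes that did not pass the filter were named after their values were seen. A gene of the pathway lists is not reported here and was left out of their counts. Alternatives were relative log expression and upper quartile factors, no filter, the edgeR exact test, DESeq2 1.42.0, limma-voom (limma 3.58.1), the replicate number as a block, no mitochondrially encoded genes, and each library left out.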

Additional observations from a re-analysis of the deposited data

How the results depend on the processing

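The number of genes called was 2 with both other scalings, 41 without a low-count filter, 14 with the edgeR exact test, 9 with DESeq2, 7 with limma-voom, 4 without mitochondrially encoded genes and 11 with the replicate number as a block. The deviations of same-numbered libraries from their group means correlated by 0.00399 over genes, and nothing in the labels pairs them. With 1 library left out, which assumes that the lone library of a genotype varies like the others, the edgeR count ran from 0 (without WT 1, where 392 genes passed an unadjusted p under 0.05) to 37 (without Zbp1-KO 2), with 20 without WT 2 and 8 without Zbp1-KO 1. Pathway genes called numbered 0 under the other alternatives and 2, Fos and Saa3, both lower in Zbp1-KO, without the filter, without WT 2 and without Zbp1-KO 2. Leaving out the filter brought more genes into the test (22065). The cause of the change in the number called was not tested for any setting. None of the 8 filtered TLR genes was called under these alternatives, and Tlr8 and Tlr9 were not followed through them.

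With all 4 libraries the log2 fold change of Tlr7 ran from 2.29 to 2.34. Of 96 values of the 8 members under alternatives, 4 differed from the reported value by over 1 SD of the replicates, and these were fits on 3 libraries. Over the 4 libraries Tlr3 had 492 counts, Tlr4 188, Tlr7 150, Tlr13 106, Tlr2 76, Tlr9 15 and Tlr8 12, and these totals limit how small a difference could be seen.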

Other observations

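Marker lists of other cells in the kidney were read by library. The 8 neutrophil markers summed to 26.9 and 5.39 CPM in WT against 9.29 and 13.2 CPM in Zbp1-KO, and the neutrophil gene Ly6g had 0 counts throughout. The 6 plasma cell markers summed to 138 and 39.2 CPM in WT against 62.5 and 68.7 CPM in Zbp1-KO, with most of the level of WT 1 in Jchain (117 CPM), the joining chain of antibodies. The 7 fibroblast and pericyte markers summed to 736 and 577 CPM in WT against 398 and 606 CPM in Zbp1-KO. The 7 endothelial markers summed to 227 and 270 CPM in WT against 272 and 238 CPM in Zbp1-KO. For the neutrophil, plasma cell, fibroblast and endothelial lists the genotypes overlapped.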
